A study of Homo sapiens with 6 samples.

Results

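The 10 genes described here encode members of the BCL2 family and cytochrome c, and they were chosen by name: the BH3-only genes BBC3, PMAIP1, BCL2L11, BID and BAD, the effectors BAX and BAK1, the guardians BCL2L1 and MCL1, and CYCS. All 10 were among the 28495 genes of the deposited table, matched by Ensembl gene ID, and all 10 passed the filter on low values. RNA came from cultured NCI-H1299, a human lung cancer line that the submitters call lung adenocarcinoma. In 3 libraries complement factor B (CFB) was silenced (sh-CFB), and 3 libraries were controls (sh-NC). The sample titles name short hairpins, while the column names of the table are of the kind used for small interfering RNA. The time after silencing, the reagent's sequence and whether silenced cells were 1 clone are left unstated by the sources used here. Since the replicates may have come from the same culture, p-values speak only for the spread among these libraries. Fewer cells of a kind and less RNA per cell cannot be told apart in such bulk samples.

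BCL2 family proteins decide whether the outer mitochondrial membrane stays closed. Guardians such as BCL-XL and MCL1 hold the effectors BAX and BAK in check, BH3-only proteins bind guardians or activate effectors, and open pores let cytochrome c leave the space between the mitochondrial membranes. In the cytosol cytochrome c assembles APAF1 and caspase-9 into the apoptosome, while inside the mitochondrion the same protein carries electrons between complexes III and IV of the respiratory chain.

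The unit is FPKM, a fragment count divided by the gene's length and the library's total, and fold changes are sh-CFB over sh-NC on the log2(FPKM + 0.5) scale. Recovered depth lay between 26.2 M and 38.4 M reads (M, mega) in sh-CFB and between 32.9 M and 40.0 M in sh-NC. The silenced gene gave no check of the labels, since CFB had 0, 0 and 2 reads in sh-CFB, against 1, 6 and 5 in sh-NC. Markers of the labelled lung epithelium were only in part present: 3 of the 9 found in the table averaged at least 0.5 FPKM, namely KRT7, KRT8 and KRT18. NKX2-1, a defining transcription factor of lung adenocarcinoma, lay between 0.12 and 0.189 FPKM in sh-CFB and between 0.184 and 0.339 in sh-NC. Summed markers of immune cells, fibroblasts and endothelial cells stayed at or below 0.295 FPKM in sh-CFB and 0.329 in sh-NC. The libraries also differed along GC content. Over 12397 genes, GC content correlated with how far a library stood from the mean level of each gene most strongly in the replicate 1 libraries, with a Spearman rho of 0.60 in sh-CFB replicate 1 and -0.55 in sh-NC replicate 1, against -0.25 to 0.23 in the other 4.

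The death-promoting BBC3 rose, CYCS fell, and the other 8 genes did not pass the test. Of the 10 genes 1 was called higher, against 1.74% of the 12466 genes tested, and 1 was called lower, against 5.71%; in either direction 7.45% of tested genes were called at a limma adjusted p under 0.05. The groups did not overlap for BBC3, BAX and CYCS, 3 of the 10, a share close to the 33.7% of all tested genes whose groups did not overlap (23.6% were lower in sh-CFB without overlap). The median log2 fold change was 0.03 over the 10 genes and -0.15 over all tested genes, so the offset of the whole table is not zero. Fewer genes were called with median-of-ratios factors, 1.65% in all, 0.545% higher and 1.11% lower, where CYCS was the 1 gene of the 10 called. Correction for GC content and length left 11.1% of tested genes called, 4.91% higher and 6.22% lower, and CYCS was again the only one of the 10. With quantile normalization 8.83% were called, 3.73% higher and 5.10% lower, among them BBC3 and CYCS. Without both replicate 1 libraries 5.57% were called, 1.32% higher and 4.24% lower, among them PMAIP1 and CYCS. By role the medians were 0.21 for the 5 BH3-only genes, -0.03 for the 2 effectors and -0.27 for the 2 guardians. After the GC and length correction they were 0.27, -0.04 and -0.10, against 0.01 for all tested genes.

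**Figure D1:**
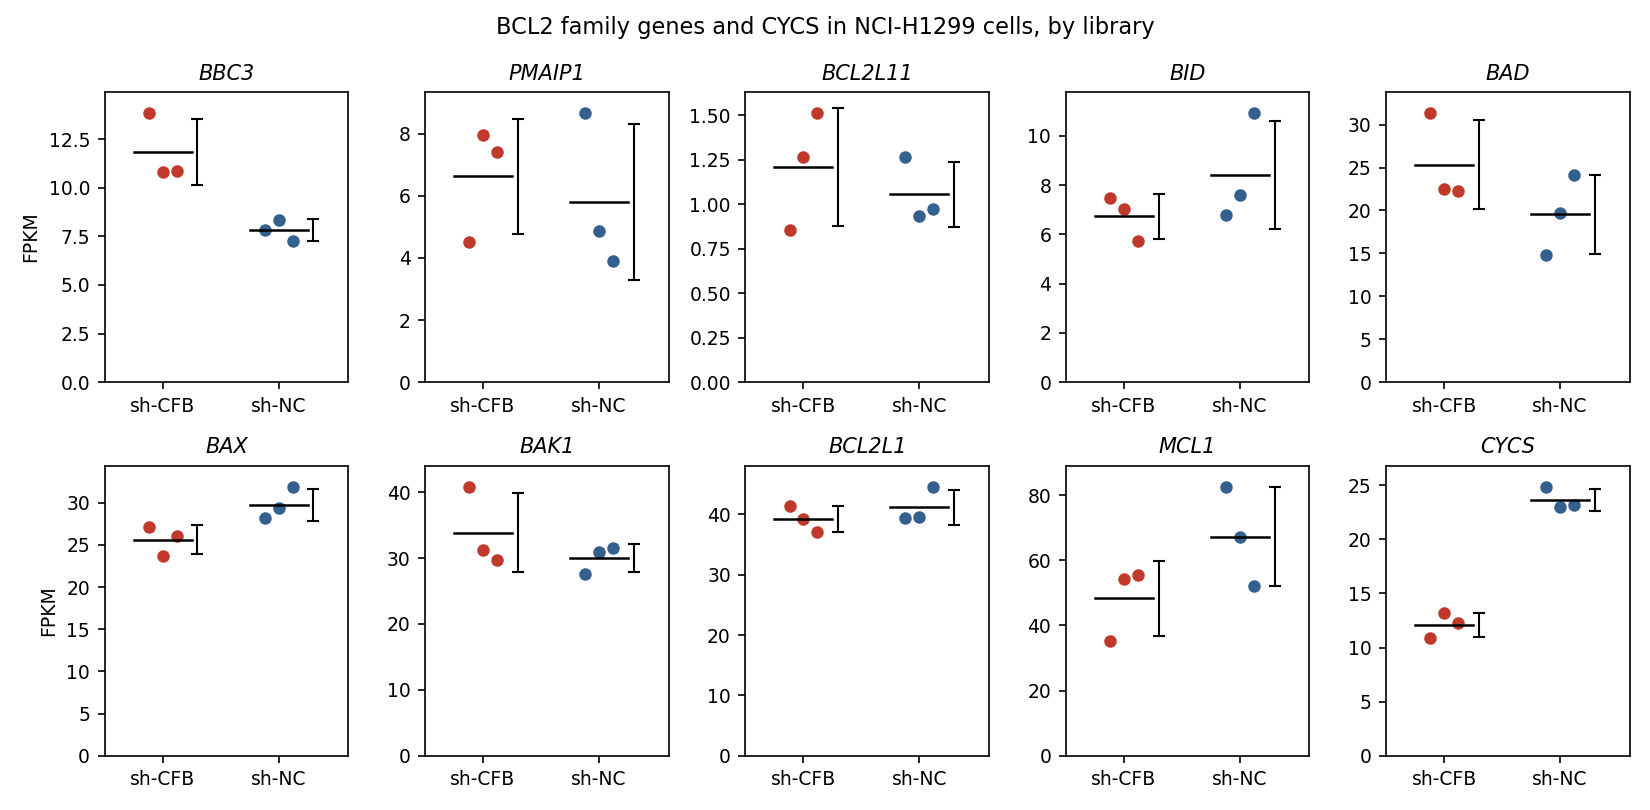
FPKM (y axis, from 0) of the 10 genes in the 3 sh-CFB libraries (red, left) and the 3 sh-NC libraries (blue, right), drawn from replicate 1 to 3 within a group; horizontal lines are means and bars are SD. CYCS lies between 10.9 and 13.2 in sh-CFB and between 23.0 and 24.8 in sh-NC, BBC3 and BAX also separate the groups, and the other 7 overlap.

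The levels of the 10 genes, which FPKM makes comparable per length, followed a similar order in both groups. MCL1 stood highest with a mean of 48.3 ± 11.5 FPKM in sh-CFB and 67.2 ± 15.2 in sh-NC, and BCL2L11 lowest with 1.21 ± 0.331 in sh-CFB and 1.06 ± 0.182 in sh-NC (SD, n = 3 each). In sh-CFB the order below MCL1 was BCL2L1, BAK1, BAX, BAD, CYCS, BBC3, BID and PMAIP1. Neighbours whose ranges overlapped there were MCL1 and BCL2L1, BCL2L1 and BAK1, BAX and BAD, CYCS and BBC3, and BID and PMAIP1. In sh-NC the order below MCL1 was BCL2L1, BAK1, BAX, CYCS, BAD, BID, BBC3 and PMAIP1, with overlap between BAK1 and BAX, CYCS and BAD, BID and BBC3, and BBC3 and PMAIP1. CYCS thus ranked next to BBC3 in sh-CFB and next to BAX and BAD in sh-NC. Over both groups 93.6% of tested genes had a lower mean FPKM than MCL1, 91.0% than BCL2L1 and 82.1% than CYCS, while for BCL2L11 the share was 20.4%.

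BBC3 encodes PUMA, a BH3-only protein that binds every guardian. The gene (ENSG00000105327) lies on chromosome 19 from 47220822 to 47232766 on the reverse strand. Its FPKM was 13.8, 10.8 and 10.9 in sh-CFB replicates 1, 2 and 3, and 7.84, 8.35 and 7.26 in sh-NC replicates 1, 2 and 3. Every sh-CFB library lay above every sh-NC library, and sh-CFB replicate 1 stood highest. The means were 11.8 ± 1.71 FPKM in sh-CFB and 7.82 ± 0.545 in sh-NC (SD, n = 3 each), a log2 fold change of 0.56 (SE 0.13), or 1.48-fold. The limma adjusted p was 0.0456, and the two-sided exact permutation p over libraries was 0.1, the smallest that 3 against 3 can give. The call was lost when any single library was left out, with an adjusted p between 0.0803 and 0.152. It was also lost after a correction for GC content and length, where the change was 0.27 (SE 0.12, adjusted p = 0.197). BBC3 has the highest GC content of the 10 genes, 69.7%.

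Because the series title points to FOS, the window just before BBC3 is shown with its match to the AP-1 motif, the element that FOS and JUN dimers bind. The sequence is from RefSeq promoters on GRCh38.p14 (chr19:47232767-47232917, reverse strand), 151 bases that end just before the gene's first base in GENCODE 29. Capitals mark TGANTCA, where N is any base.
BBC3: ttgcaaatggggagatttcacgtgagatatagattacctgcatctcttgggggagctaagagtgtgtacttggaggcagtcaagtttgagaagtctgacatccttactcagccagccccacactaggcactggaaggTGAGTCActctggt
The match covers chr19:47232774-47232780. It ends 8 bases before that first base and 107 bases before the RefSeq start, so the 2 annotations place it differently. Searched on both strands in the 250 bases before each RefSeq start, TGANTCA occurred in 6.57% of 35116 windows and, among the 9 of the 10 genes with a window, in BBC3 alone. An E-box, CACGTG, was held by windows of BBC3, BID and BAX, against 6.34% of all windows, and overlapped no AP-1 match in BBC3. No window of the 9 genes held the cyclic AMP element TGACGTCA, present in 1.65% of all windows. The GC box GGGCGG was held by 6 of the 9 genes, against 42.6% of all windows. A match describes letters only and does not show that a factor binds.

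The other BH3-only genes did not pass. PMAIP1 encodes NOXA, which binds MCL1 and promotes its degradation (ENSG00000141682, chromosome 18 from 59899948 to 59904306, forward strand). Its FPKM was 4.52, 7.96 and 7.41 in sh-CFB, against 8.65, 4.88 and 3.89 in sh-NC. The groups overlapped because the replicate 1 libraries of both groups ran opposite to the rest, low in sh-CFB and high in sh-NC. The log2 difference was 0.21 (SE 0.30, adjusted p = 0.707 with limma). Without both replicate 1 libraries, an alternative chosen after seeing the data, it was 0.75 (SE 0.14, adjusted p = 0.0317), and PMAIP1 was then the gene of the 10 called higher. After the GC and length correction with all libraries it was 0.37 (adjusted p = 0.207). PMAIP1 has the lowest GC content of the 10 genes, 37.2%.

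BCL2L11 encodes BIM, a BH3-only protein that can activate BAX directly (ENSG00000153094, chromosome 2 from 111119378 to 111168447, forward strand). Its FPKM was 0.853, 1.26 and 1.51 in sh-CFB, against 1.26, 0.931 and 0.971 in sh-NC, so the groups overlapped. The reads behind these values numbered 149, 281 and 386 in sh-CFB, against 332, 248 and 213 in sh-NC. The log2 difference was 0.12 (SE 0.20, adjusted p = 0.745). Corrected for GC and length, the log2 values were 0.85, 0.86 and 0.98 in sh-CFB, against 0.49, 0.38 and 0.60 in sh-NC. The corrected groups did not overlap, with a difference of 0.41 (SE 0.11, adjusted p = 0.0560) that missed the threshold. The share of all tested genes without overlap after this correction was not counted. In GENCODE 29 an opposite-strand gene, MIR4435-2HG, shares 10.9% of the BCL2L11 exon bases.

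BID is the BH3-only protein that caspase-8 cleaves, linking death receptors to mitochondria (ENSG00000015475, chromosome 22 from 17734138 to 17774770, reverse strand). Its FPKM was 7.49, 7.01 and 5.73 in sh-CFB, against 6.78, 7.58 and 10.9 in sh-NC. The sh-NC libraries spread over the sh-CFB range, and the log2 difference was -0.28 (SE 0.19, adjusted p = 0.395). It was -0.03 (adjusted p = 0.953) once corrected for GC and length. BAD is a BH3-only protein held inactive by growth factor kinases (ENSG00000002330, chromosome 11 from 64269830 to 64284704, reverse strand). Its FPKM was 31.3, 22.5 and 22.3 in sh-CFB, against 14.8, 19.7 and 24.1 in sh-NC. The highest and the lowest of these are the replicate 1 libraries, and BAD has a GC content of 66.3%. The log2 difference was 0.38 (SE 0.20, adjusted p = 0.280) and became 0.14 (adjusted p = 0.413) once GC and length were corrected for. Without both replicate 1 libraries it was 0.04. BAD shares 23.7% of its exon bases with GPR137 on the opposite strand, and the sources used here leave unstated whether the counting used strand.

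The effectors showed small differences. BAX (ENSG00000087088, chromosome 19 from 48954815 to 48961798, forward strand) had 27.1, 23.7 and 26.0 FPKM in sh-CFB, against 28.1, 29.3 and 31.9 in sh-NC. Every sh-CFB library lay below every sh-NC library, and 0.1 as the p of the two-sided exact permutation test. The log2 difference was -0.21 (SE 0.10, adjusted p = 0.218), and its 95% interval ran from -0.44 to 0.01. It was -0.22 (SE 0.07, adjusted p = 0.0900) once corrected for GC and length, and -0.07 relative to the median tested gene on uncorrected values. BAK1 (ENSG00000030110, chromosome 6 from 33572547 to 33580293, reverse strand) had 40.8, 31.2 and 29.7 FPKM in sh-CFB, against 27.6, 30.9 and 31.6 in sh-NC. Only sh-CFB replicate 1 stood above the sh-NC range, and the log2 difference was 0.16 (SE 0.14, adjusted p = 0.503). Without both replicate 1 libraries it turned to -0.04. The processed copy BAK1P1 had 202 reads over all libraries, 1.38% of the 14629 reads of BAK1, so sharing of reads with that copy is uncertain.

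The guardians did not pass either. BCL2L1 encodes BCL-XL and, by splicing, a short death-promoting form that gene-level values do not separate (ENSG00000171552, chromosome 20 from 31664452 to 31723989, reverse strand). Its FPKM was 41.4, 39.3 and 37.1 in sh-CFB, against 39.4, 39.7 and 44.6 in sh-NC. The groups overlapped within a narrow range. The log2 difference was -0.07 (SE 0.10, adjusted p = 0.698), with a 95% interval from -0.29 to 0.15. For values as deposited only, that interval leaves out changes of the size seen for BBC3 or CYCS. The sign was positive with median-of-ratios factors (0.13), and relative to the median tested gene the difference was 0.08. BCL2L1 shares 43.0% of its exon bases with ABALON on the opposite strand. Whether the counting used strand is left unstated by the sources used here, and the effect of this overlap on the BCL2L1 values was not tested. MCL1 is a short-lived guardian (ENSG00000143384, chromosome 1 from 150574551 to 150579738, reverse strand). Its FPKM was 35.1, 54.3 and 55.6 in sh-CFB, against 82.5, 67.1 and 52.1 in sh-NC. The replicate 1 libraries again stood at the ends, and the log2 difference was -0.48 (SE 0.22, adjusted p = 0.219). It was -0.19 (adjusted p = 0.272) once corrected for GC and length and -0.10 (adjusted p = 0.659) without both replicate 1 libraries. At 45.1%, the GC content of MCL1 is in the lower part of the range of the 10 genes.

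CYCS, the gene of somatic cytochrome c, changed more than any other of the 10 (ENSG00000172115, chromosome 7 from 25120091 to 25125361, reverse strand). Its FPKM was 10.9, 13.2 and 12.2 in sh-CFB, against 24.8, 23.0 and 23.1 in sh-NC. Every sh-CFB library lay far below every sh-NC library, and within groups the values were tight. The means were 12.1 ± 1.13 FPKM in sh-CFB and 23.7 ± 1.04 in sh-NC (SD, n = 3 each), with 1658 to 2722 reads per library in sh-CFB and 4416 to 5676 in sh-NC. The log2 fold change was -0.94 (SE 0.11, 95% interval from -1.19 to -0.70), or 0.521-fold, with a limma adjusted p of 0.00854. Only 1.05% of tested genes had a lower fold change. With the two-sided exact permutation test p was 0.1, the smallest possible. After the GC and length correction CYCS still fell, with a log2 fold change of -0.69 (SE 0.13, adjusted p = 0.0224), and without both replicate 1 libraries by 0.84 (adjusted p = 0.0123). It missed the threshold without sh-NC replicate 2 (-0.96, adjusted p = 0.0694). CYCS has many processed copies in the genome. The 6 listed in the table held 66 reads in all against 22340 for CYCS, 0.295%, though the treatment of reads that match several copies is left unstated.

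The window before CYCS is shown with its match to GCATGCGC, the core of the element bound by nuclear respiratory factor 1 (NRF1), a known activator of cytochrome c transcription. The sequence is from RefSeq promoters on GRCh38.p14 (chr7:25125362-25125510, reverse strand), 149 bases that end just before the gene's first base in GENCODE 29. Capitals mark the motif.
CYCS: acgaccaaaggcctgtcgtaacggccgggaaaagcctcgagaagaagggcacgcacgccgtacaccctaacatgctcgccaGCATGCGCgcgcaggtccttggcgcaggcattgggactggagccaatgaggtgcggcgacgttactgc
The match covers chr7:25125422-25125429. Searched on both strands in 250-base windows, GCATGCGC occurred in 2.63% of all windows and, among the 9 genes with a window, in CYCS alone. NRF1 itself, named after its values were seen, had 5.13 ± 0.165 FPKM in sh-CFB and 6.67 ± 0.27 in sh-NC (SD, n = 3 each), a log2 difference of -0.35 (adjusted p = 0.104) that did not pass and was -0.08 (adjusted p = 0.674) with GC and length corrected for.

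**Figure D2:**
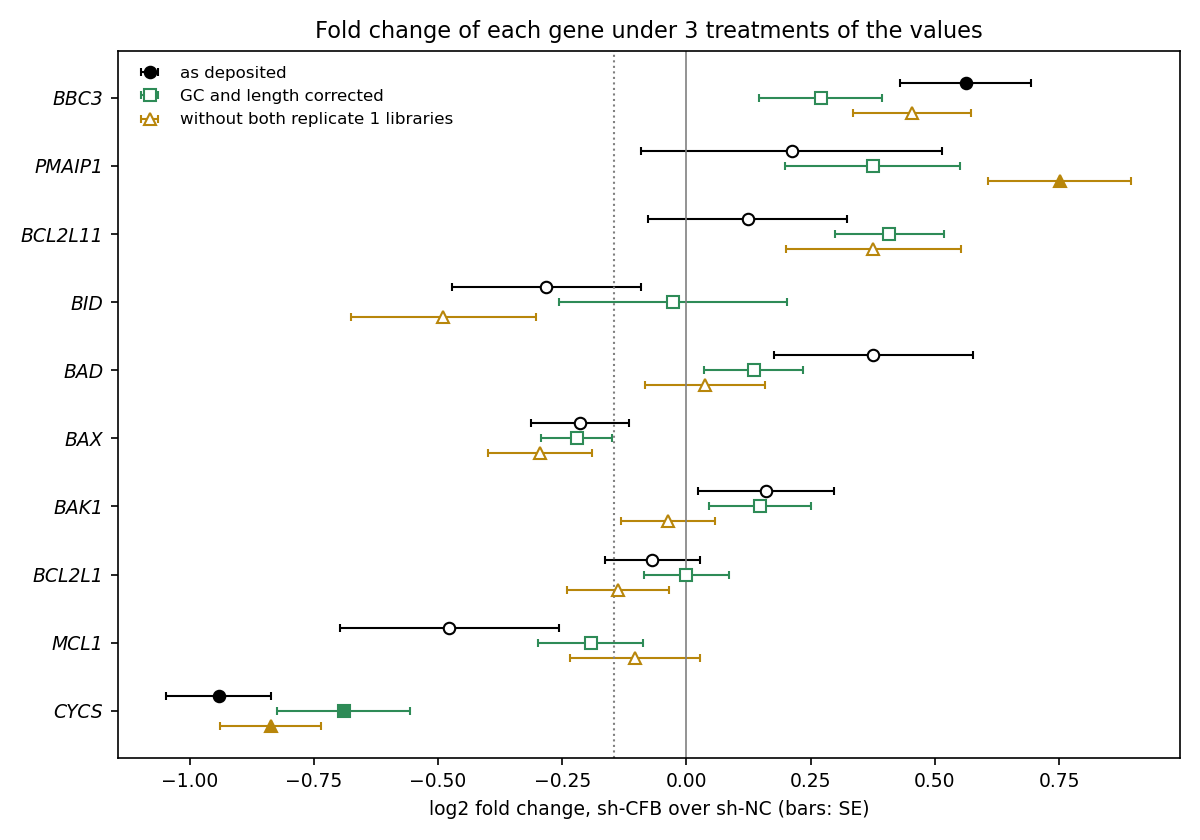
Log2 fold change, sh-CFB over sh-NC (x axis), of each gene (rows) with its SE, for values as deposited (black circles), after the GC and length correction (green squares) and without both replicate 1 libraries (gold triangles). Filled symbols passed an adjusted p of 0.05 and the dotted line is the median tested gene as deposited (-0.15). CYCS is filled under each of these, BBC3 only as deposited (0.56) and PMAIP1 only without both replicate 1 libraries (0.75).

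The spread of the 10 genes within each group followed their GC content. In sh-CFB replicate 1 the deviation from the mean of replicates 2 and 3 was positive for all 6 genes with a GC content of 49.7% or more and negative for the 4 below, with a Spearman correlation of 0.85 over the 10 genes. BAD stood 0.47 above and PMAIP1 0.71 below the other sh-CFB libraries. In sh-NC replicate 1 the correlation was -0.70, with PMAIP1 0.91 above and BAD 0.54 below the other sh-NC libraries. These 10 points share 6 libraries, and the coefficients are descriptions. Between GC content and the log2 fold change itself the Spearman rho was 0.54 over the 10 genes, 0.08 after the GC and length correction and 0.12 without both replicate 1 libraries. CYCS, with a GC content of 41.6%, deviated by -0.21 in sh-CFB replicate 1 and by 0.11 in sh-NC replicate 1. Its log2 fold change was -0.94 as deposited and -0.69 after the GC and length correction. How far GC content enters the CYCS difference was not tested.

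**Figure D3:**
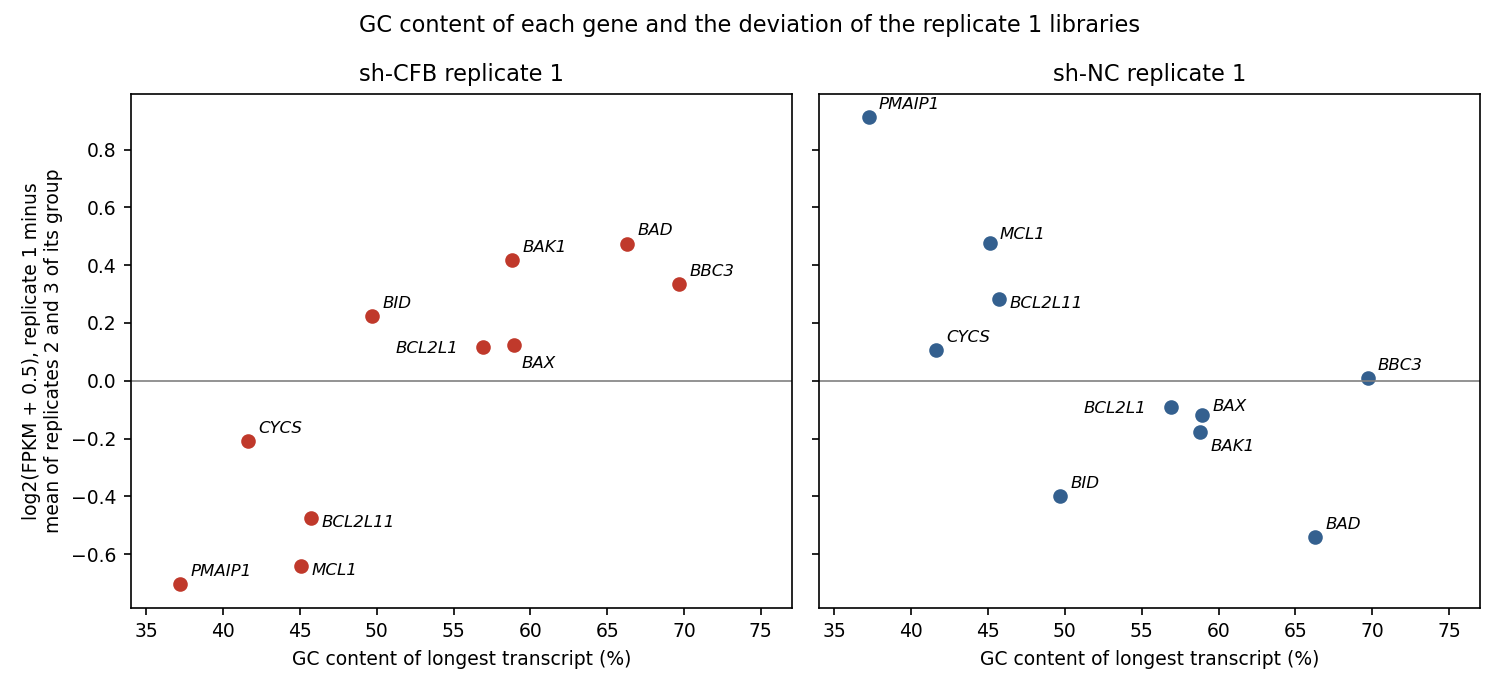
GC content of the longest transcript (x axis, percent) against the deviation of replicate 1 from the mean of replicates 2 and 3 of its group in log2(FPKM + 0.5) (y axis), for the 10 genes in sh-CFB (left, red) and sh-NC (right, blue). The points climb from PMAIP1 at -0.71 to BAD at 0.47 in sh-CFB and descend from PMAIP1 at 0.91 to BAD at -0.54 in sh-NC, where BBC3 lies near 0.

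Ratios between 2 genes within a library do not depend on the scaling of that library. BBC3 over BCL2L1, genes of 69.7% and 56.9% GC, was 0.334, 0.275 and 0.293 in sh-CFB, against 0.199, 0.211 and 0.163 in sh-NC, without overlap and with a log2 difference of 0.66. With both genes corrected for GC and length, an alternative chosen after seeing the data, the groups overlapped: the log2 ratio was -1.98, -1.88 and -1.77 in sh-CFB, against -1.91, -2.03 and -2.50 in sh-NC, and the difference 0.27. PMAIP1 over MCL1, a BH3-only gene over the guardian it binds and both of lower GC content, was 0.129, 0.146 and 0.133 in sh-CFB, against 0.105, 0.0727 and 0.0746 in sh-NC. These groups did not overlap either, although those of PMAIP1 and of MCL1 alone did. The log2 difference of 0.71 became 0.57 with the corrected values, and the groups still did not overlap. BAX over BCL2L1 was 0.654, 0.603 and 0.702 in sh-CFB, against 0.713, 0.740 and 0.715 in sh-NC, lower in sh-CFB by a small margin, and the groups overlapped with the corrected values (log2 difference -0.15 as deposited and -0.22 corrected). BAK1 over MCL1, genes that differ in GC content, was 1.16, 0.574 and 0.533 in sh-CFB, against 0.334, 0.460 and 0.606 in sh-NC, with overlap; the corrected groups did not overlap (log2 difference 0.64 as deposited and 0.34 corrected). The ratios were chosen with results known and carry no test. The share of all gene pairs whose ratios separate the groups was not counted. Among single tested genes as deposited, 33.7% separated the groups.

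**Figure D4:**
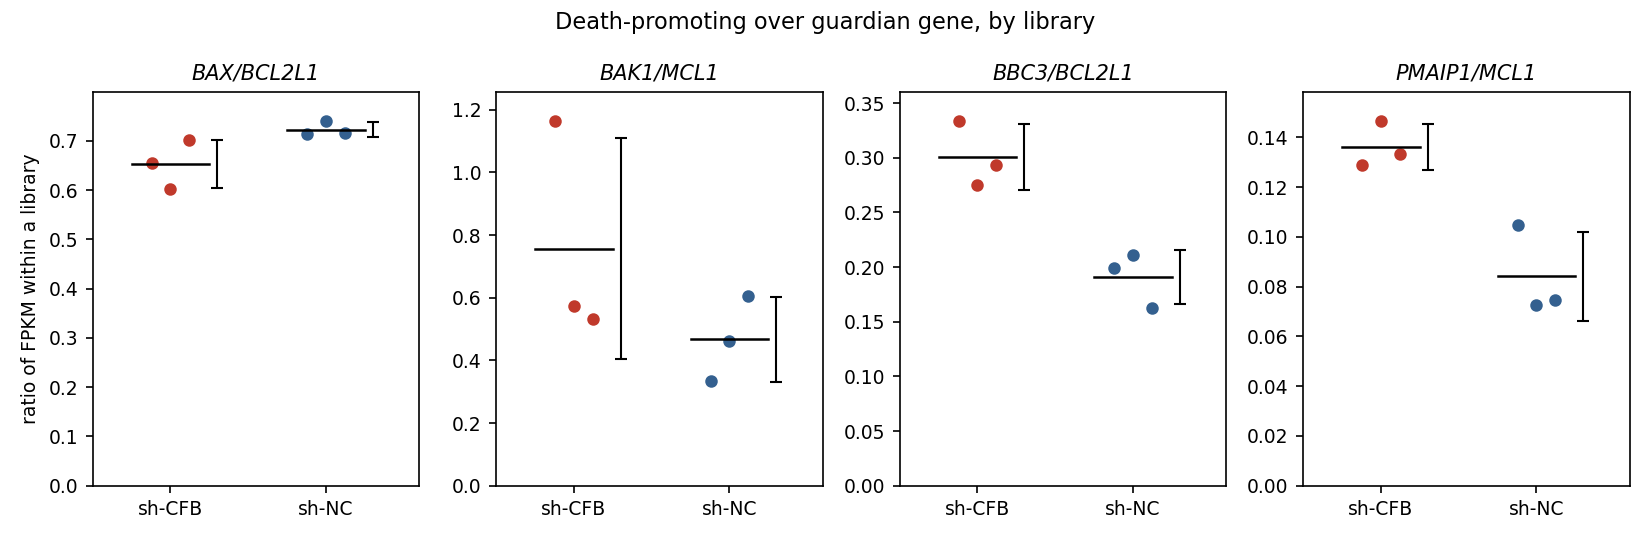
Ratio of FPKM within a library (y axis, from 0) of a death-promoting gene over a guardian in the 3 sh-CFB libraries (red, left) and the 3 sh-NC libraries (blue, right), with means (lines) and SD (bars). As deposited, BBC3/BCL2L1 and PMAIP1/MCL1 are higher in all sh-CFB libraries, BAX/BCL2L1 is slightly lower in them, and BAK1/MCL1 overlaps. Corrected for GC and length (not drawn), BBC3/BCL2L1 and BAX/BCL2L1 overlap and the other pairs do not. The share of all gene pairs without overlap was not counted.

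Around the 10 genes, 10 lists held 79 further genes of the same route, of which 65 were tested: 10 were lower, against 5.71% of all tested genes, 0 were higher, against 1.74%, and 55 did not pass (limma; 4 had a positive change at an unadjusted p under 0.05). Their median log2 fold change was -0.22, against -0.15 for all tested genes. After the GC and length correction the median was -0.04, against 0.01 for all tested genes; 6 of the 65 were lower, against 6.22% of all, and 3 higher, against 4.91%. Without sh-NC replicate 2, and likewise without sh-CFB replicate 2, 0 of the 65 passed, while 20 and 39 of all tested genes did; without sh-NC replicate 1 it was 2 of the 65.

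Beside CYCS, a part of the genes listed around cytochrome c fell. In the list of cytochrome c maturation and redox partners 3 of 11 were called lower, 0 higher and 8 did not pass. Of all tested genes 5.71% were called lower. Whether called or not, 5 of the 11 had a positive log2 fold change and 6 a negative one. The list's median of -0.18 was close to the -0.15 of all tested genes and became 0.02 with GC and length corrected for. HCCS, the lyase that attaches haem to cytochrome c, averaged 12.1 ± 0.306 FPKM in sh-CFB and 19.3 ± 1.93 in sh-NC (SD, n = 3 each), a log2 fold change of -0.65 (adjusted p = 0.0163). CHCHD4, the oxidoreductase of import into the intermembrane space, fell by 0.57 (adjusted p = 0.0193), and UQCRFS1, the Rieske iron-sulphur subunit of complex III, by 0.55 (adjusted p = 0.0401). Of these CHCHD4 alone was still called once corrected for GC and length (-0.35, adjusted p = 0.0303). That is 1 of the 11, against 6.22% of all tested genes called lower. None of the 6 tested nuclear regulators of respiratory genes passed, and the member farthest from 0 was TFAM, the mitochondrial transcription factor, at -0.50 (adjusted p = 0.264).

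Among other proteins of the intermembrane space 2 of 4 tested genes fell, while 5.71% of all tested genes were called lower. The list's median of -0.20 was close to the -0.15 of all tested genes. After the GC and length correction 1 of the 4 was called lower, against 6.22% of all, and the median was -0.22, against 0.01. AIFM1, the apoptosis-inducing factor, averaged 3.24 ± 0.467 FPKM in sh-CFB and 6.27 ± 0.0446 in sh-NC (SD, n = 3 each), a log2 fold change of -0.86 (SE 0.14, adjusted p = 0.0158), and was still called after the GC and length correction (-0.62, adjusted p = 0.0199). In the list of outer membrane channels and mitochondrial dynamics 3 of 9 genes fell, beside the same 5.71% of all tested genes. The list's median was -0.27, against -0.15 for all tested genes, and -0.07 with GC and length corrected for. MFN2, a mitofusin, changed by -0.80 (adjusted p = 0.0208), and the channel genes VDAC3 by -0.70 (adjusted p = 0.0416) and VDAC1 by -0.48 (adjusted p = 0.0233). After the correction 2 of the 9, MFN2 and VDAC3, were still called, against 6.22% of all tested genes called lower. VDAC1 was not (-0.20, adjusted p = 0.171).

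**Figure D5:**
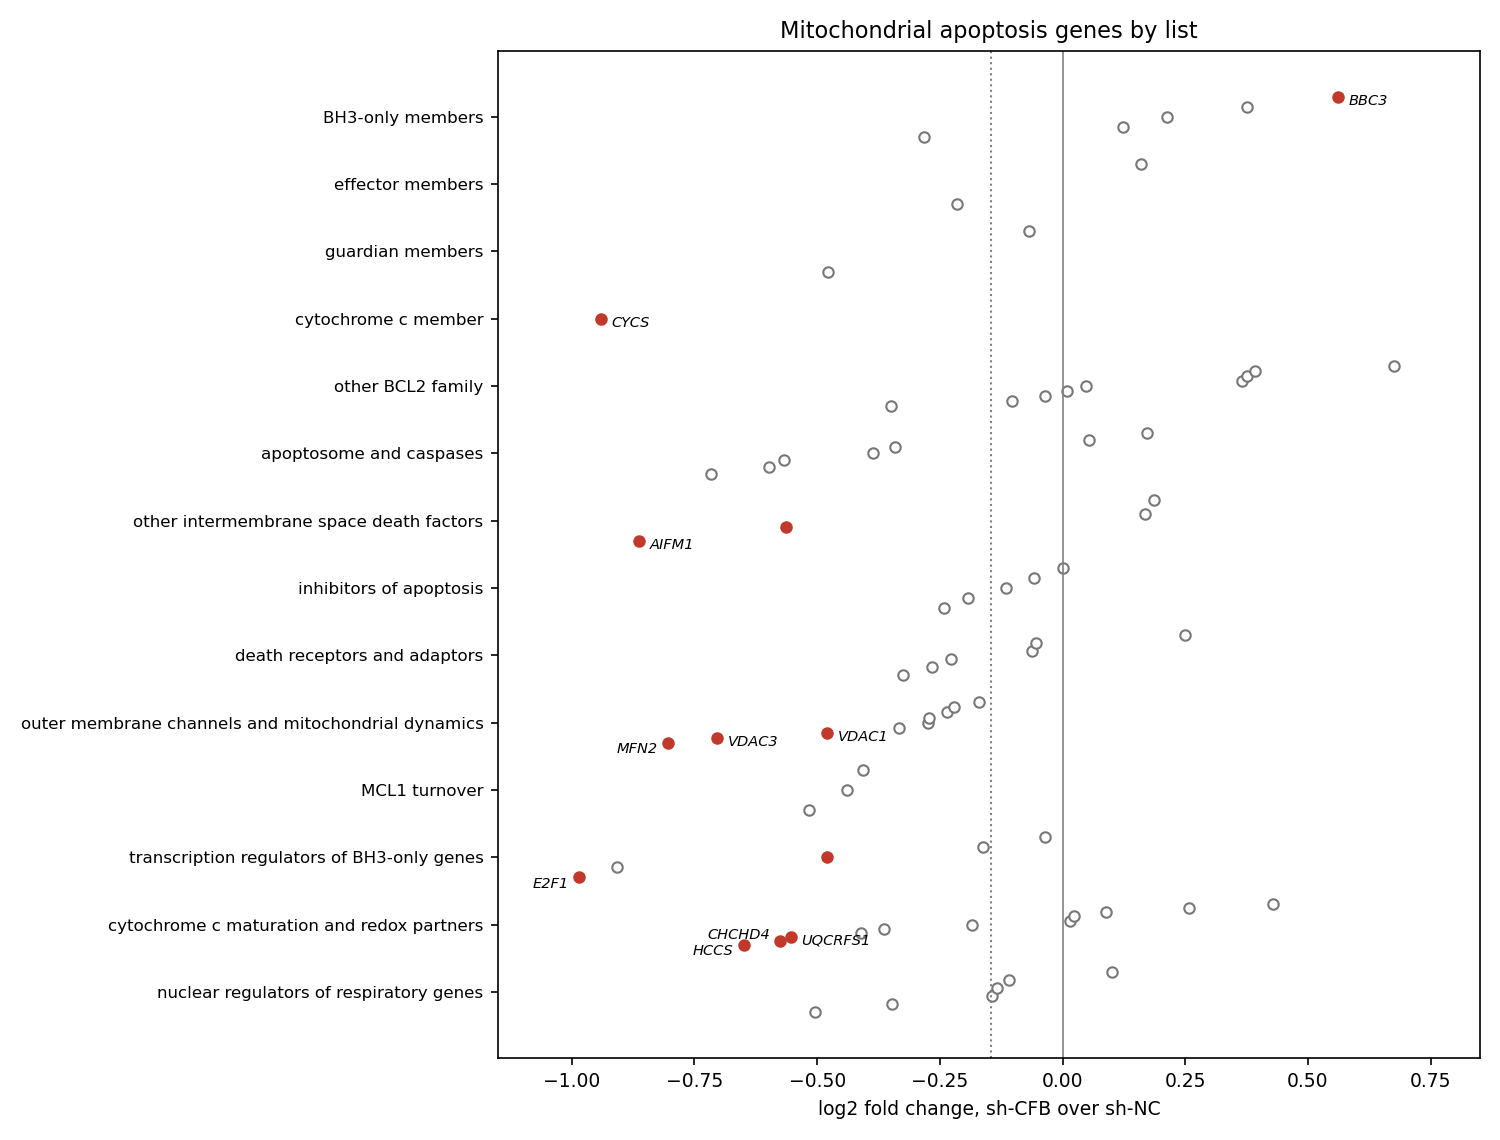
Log2 fold change, sh-CFB over sh-NC (x axis), of every tested gene in each list (rows), with points spread vertically within a row for legibility. Filled red points passed an adjusted p of 0.05, and those described in the text are named; open points did not pass, and the dotted line is the median tested gene (-0.15). The first 4 rows are the 10 genes by role, and BBC3 is the named point to the right of 0.

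Lists downstream and beside the family held no gene past the test. Of 7 tested apoptosome and caspase genes the one farthest from 0 was CASP2, an initiator caspase, at -0.72 (adjusted p = 0.0593; -0.44 with adjusted p = 0.0298 after the correction). Among 9 other tested BCL2 family genes it was BMF, a BH3-only gene, at 0.67 (adjusted p = 0.0674). BMF had 2.83, 3.12 and 3.32 FPKM in sh-CFB, against 1.93, 2.11 and 1.29 in sh-NC, without overlap. After the GC and length correction BMF was called higher (0.81, adjusted p = 0.0165), as were the mitophagy receptor BNIP3 (0.59, adjusted p = 0.0110) and the death receptor TNFRSF1A (0.30, adjusted p = 0.0334), the last 2 named after their values were seen. So corrected, 2 of the 9 other BCL2 family genes and 1 of the 6 death receptor genes were higher, against 4.91% of all tested genes. Of the 7 apoptosome and caspase genes 1 was lower, against 6.22% of all. The guardian BCL2, likewise named afterwards, was below the filter, with 0.175, 0.192 and 0.225 FPKM in sh-CFB, against 0.326, 0.289 and 0.274 in sh-NC (two-sided exact permutation p = 0.1, the smallest possible). The member farthest from 0 was BIRC5, or survivin, among 5 tested inhibitors of apoptosis (-0.24, adjusted p = 0.350), the adaptor FADD among 6 death receptor genes (-0.33, adjusted p = 0.139) and the ubiquitin ligase HUWE1 among 3 genes of MCL1 turnover (-0.52, adjusted p = 0.392).

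Among transcription regulators of BH3-only genes 2 of 5 tested fell, while 5.71% of all tested genes were called lower. The list's median was -0.48, against -0.15 for all tested genes. After the GC and length correction 1 of the 5 was called lower, against 6.22% of all, and the median was -0.28, against 0.01. E2F1, a cell cycle factor, averaged 16.7 ± 1.86 FPKM in sh-CFB and 33.6 ± 3.73 in sh-NC (SD, n = 3 each), a log2 fold change of -0.98 (SE 0.12, adjusted p = 0.0106; -1.09 after the correction).

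Over the 6 libraries, the 3 genes whose log2 levels followed CYCS most closely among 7327 named genes averaging 2 FPKM or more were MCM3 (Pearson r 0.999), a replicative helicase subunit, ALDH9A1 (0.998), an aldehyde dehydrogenase, and TIMELESS (0.997), a replication fork protein. In all, 592 genes had an r above 0.95 with CYCS and 105 with BBC3. For BBC3 the 3 were PLD3 (0.995), a lysosomal nuclease, ITPKC (0.991), an inositol phosphate kinase, and MVD (0.990), an enzyme of sterol synthesis. With 6 libraries in 2 groups such coefficients describe a shared pattern of libraries.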

How the data were processed

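The authors deposited 1 table of FPKM, with a column for each of the 6 libraries. The workflow names GRCh38, STAR 2.7.3a, Trimmomatic 0.39, featureCounts 2.0.1 and FastQC 0.11.9, per the submitters' processing notes. Library preparation kept strand (TruSeq Stranded mRNA), per the labels' protocols. Strand setting, annotation release and FPKM formula: not given in the sources used here.

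Whole reads were recovered from the steps of the FPKM values, within 0.02 of a whole number for 99.96% of genes. The 12466 genes averaging 0.5 FPKM or more were tested as log2(FPKM + 0.5) with limma (version 3.58.1, under R 4.3.3), using a trended prior and Benjamini-Hochberg adjustment over all of them at 0.05; the fit was tested on simulated data. The GC and length correction removed loess trends of each library's deviation on GC content and log length. Intervals are 95%. Coordinates, GC content and overlaps came from GENCODE 29, promoter windows from RefSeq, and Python 3.11.15 did the rest. The 10 genes, the lists, the ratios and the motifs were chosen with earlier results of these data known. All 10 genes, every list gene past the test or else the one farthest from 0, and the 3 genes most alike to each changed member were to be named; 2 list genes past the test are counted but not reported here by name. Other settings were another pseudocount, filter, scaling or test, a replicate block, and leaving out libraries.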

Additional observations from a re-analysis of the deposited data

How the results depend on the processing

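The fall of CYCS kept its direction under all 19 other settings (log2 fold change from -1.002 to -0.69) and passed in 16. BBC3 kept its direction in 19 and passed in 4. BID, BAD, BAX and MCL1 kept their direction in 19 and passed in 0. Their smallest differences were -0.026 for BID, 0.038 for BAD, -0.013 for BAX and -0.10 for MCL1. The number of the 10 genes called higher went from 1 to 0 with no filter, equal totals, median-of-ratios factors, the GC and length correction and voom with and without those factors, and was 0 (0 to 0) in every fit that left out 1 library; it was 1 without both replicate 1 libraries, where PMAIP1 was the gene called. The number called lower was 0 to 1 when 1 library was left out. Over all tested genes 929 were called, 206 with median-of-ratios factors, 324 with no filter, 316 with voom and those factors, and 20 to 540 when 1 library, whichever, was left out. Of the pathway genes called lower (10), 5 were left with no filter, 2 with median-of-ratios factors, 2 with voom and those factors, 6 once GC and length were corrected for and 0 to 8 when 1 library was left out. Of those called higher (0), there was 1 with a filter at 2 FPKM, with median-of-ratios factors, with quantile normalization and with voom and those factors, and 3 with GC and length corrected for. The cause of these shifts was not tested.

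Same-numbered libraries were not paired by the labels, and their deviations correlated at -0.54, 0.07 and -0.45, with 1 of 6 libraries closest to its own number. With the replicate block 0 genes were called in any of these counts, with or without the GC and length correction (limma; 1770 and 2447 of all tested genes had an unadjusted p under 0.05, among them CYCS and BBC3 without the correction).

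Signs turned for BCL2L1 with median-of-ratios factors (0.13), quantile normalization (0.0045) and voom with those factors (0.14), for BAK1 without both replicate 1 libraries (-0.038), and when 1 library was left out for PMAIP1 (-0.014 to 0.52) and BCL2L11 (-0.0031 to 0.28). Median-of-ratios factors moved the median tested gene from -0.15 to 0.02. BCL2L11 had no value with a filter at 2 FPKM. The log2 difference of BBC3/BCL2L1 moved from 0.66 to 0.27 with GC and length corrected for. Depth limits BCL2L11 most, with 149 reads in its smallest library.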
